A study of Trametes versicolor and Gelatoporia subvermispora with 30 samples.

Results

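Heme-thiolate peroxidases (HTPs) are heme enzymes in which a cysteine thiolate holds the iron, as in cytochrome P450s. The family includes the fungal chloroperoxidase and the unspecific peroxygenases. Many are secreted, and they use hydrogen peroxide to oxidise or oxygenate a wide range of aromatic and aliphatic compounds, among them small products of lignin. The genes described here are HTP4, HTP5, HTP7 and HTP8 of Gelatoporia subvermispora, a white-rot basidiomycete that degrades lignin in wood. They were taken by symbol from the 15 G. subvermispora count tables, where they carry the identifiers gene5450, gene5749, gene9212 and gene1773. They are 4 of 9 HTP symbols and of 12313 genes in those tables, or of 26883 genes in the tables of both fungi of the series. They were selected on these same counts, chosen by the size of their differences on milled poplar or with the aromatic acids, so their values in those comparisons are a description without a test. Only the comparison of lignin with cellobiose lies outside that choice, and it uses the same cellobiose libraries. A symbol stands for the enzyme class it abbreviates, which counts cannot check, and the substrate of each HTP is not given in the tables.

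Mycelium was grown in a defined minimal medium with 5 different additions, and each condition had 3 RNA sequencing libraries. The conditions were 2 g of autoclaved milled poplar in 25 mL without cellobiose, 25 mg of lignin isolated from poplar in 25 mL with 5 g per litre cellobiose, 2 mM syringic acid with cellobiose, 2 mM 4-hydroxybenzoic acid (4HBA) with cellobiose, and 5 g per litre cellobiose alone. 4HBA and syringic acid are small aromatic acids related to lignin units, and syringic acid carries methoxy groups next to the hydroxyl that 4HBA lacks. The labels do not name the strain or say whether the libraries of a group came from separate cultures, so p-values measure only the spread between these libraries, which may be technical.

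Gene counts summed to 24719733 to 50296871 per library. The 10 most abundant genes took 32.7% to 43.5% of the gene counts in the 3 cellobiose libraries and in 4HBA library 1, and 4.07% to 7.95% in the other 11 libraries. 4HBA library 1 therefore stands apart from its group, and its values are named below. The unit of level is normalised CPM, a read count relative to library size after TMM scaling, which sets genes against the bulk of all genes in each library. Scaled instead to the plain total of gene counts, the median of all 10860 tested genes was higher than on cellobiose by 0.60 on the log2 scale on poplar, 1.32 with lignin, 1.12 with syringic acid and 0.93 with 4HBA. Directions against cellobiose are therefore relative to that bulk of genes. No gene length was used, so CPM values are compared between conditions and not between genes. All 4 genes passed the filter on low counts, with 60 to 512 reads per library for HTP4, 1596 to 128406 for HTP5, 2915 to 316208 for HTP7 and 50 to 2219 for HTP8.

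HTP5, HTP7 and HTP8 were at their highest on milled poplar, where each was 16.0-fold to 22.6-fold above cellobiose, while HTP4 was not raised. HTP7 had 5212, 6042 and 7641 CPM in the poplar libraries, against 331, 376 and 337 CPM in the cellobiose libraries. The lowest poplar library stood far above the highest cellobiose library. The mean was 6298 ± 1235 CPM on poplar and 348 ± 24.2 CPM on cellobiose (SD, n = 3 each), a log2 difference of 4.18 (SE 0.24). HTP7 alone took 0.469%, 0.576% and 0.675% of the gene counts of the poplar libraries.

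HTP5 stood apart on poplar by a similar factor, with 2489.8, 2686 and 3103 CPM on poplar, against 101, 145 and 119 CPM on cellobiose. The means were 2759.6 ± 313 CPM on poplar and 122 ± 22.1 CPM on cellobiose (SD, n = 3 each), a log2 difference of 4.50 (SE 0.25). Among the 10860 tested genes HTP5 had rank 88 for the size of the difference, HTP7 rank 119 and HTP8 rank 145, which describes how they were chosen.

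HTP8 was a low-level transcript outside poplar. It had 49.1, 37.5 and 52.4 CPM in the poplar libraries, against 2.87, 3.40 and 2.41 CPM in the cellobiose libraries. The log2 difference was 4.00 (SE 0.16), and the groups did not overlap. HTP4 had 4.51, 8.34 and 8.26 CPM on poplar, against 12.5, 10.2 and 9.16 CPM on cellobiose. Its poplar libraries lay just below the cellobiose libraries, with a log2 difference of -0.59 (SE 0.24) that became 0.04 when libraries were scaled to their total counts. The 2 groups stood apart in all 4 genes, and in 78.7% of all tested genes, from which nothing is read because poplar was used to choose them.

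**Figure D1:**
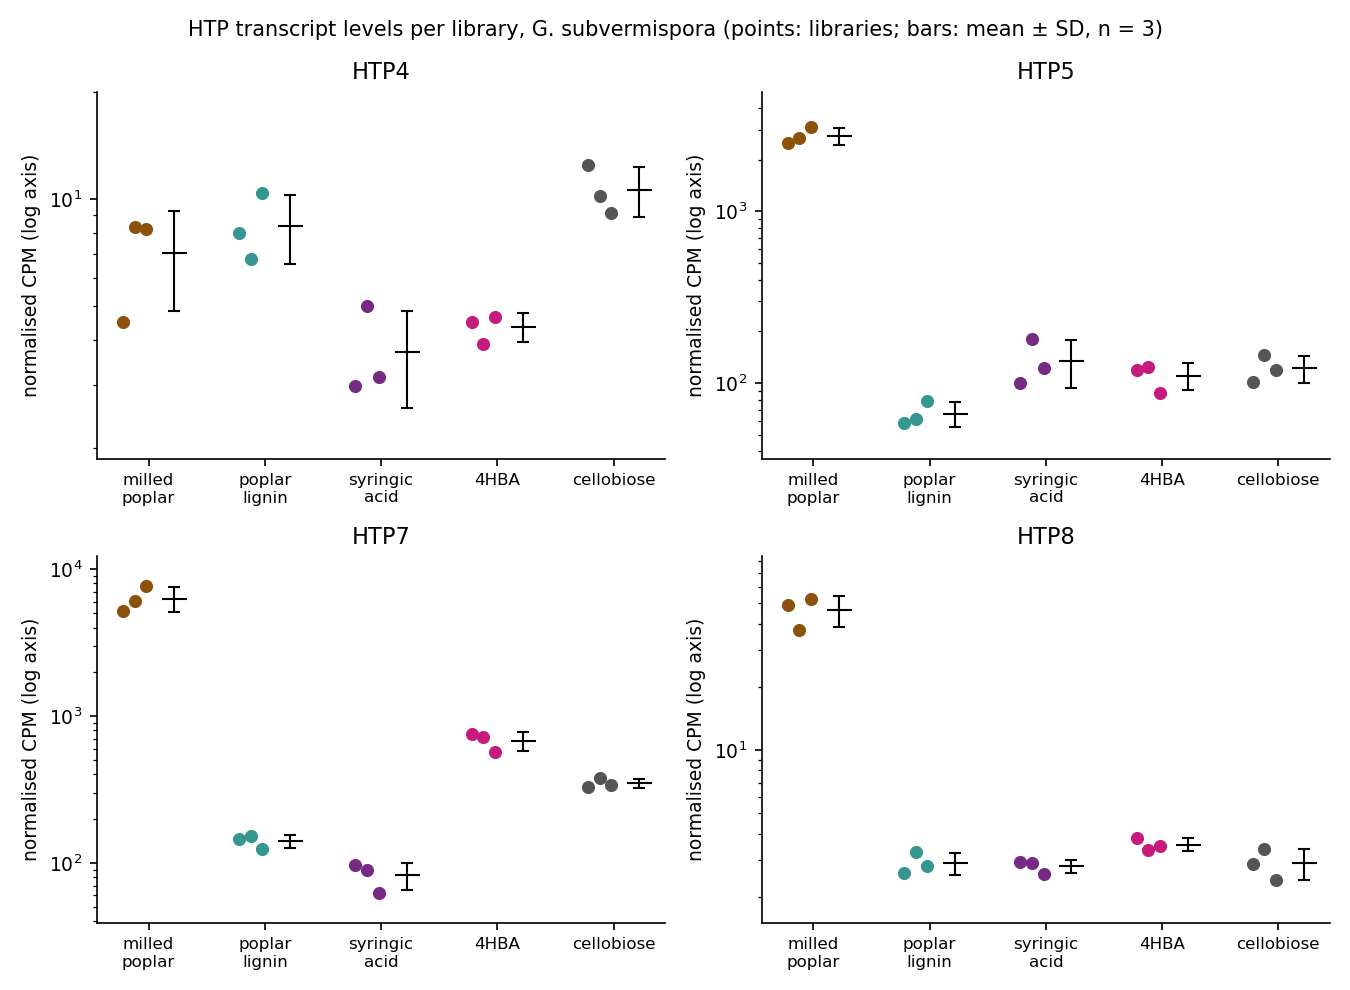
Normalised CPM on a log axis in each of the 15 libraries for HTP4, HTP5, HTP7 and HTP8, by condition; points are libraries and the black bars are the mean ± SD of 3 libraries. HTP5, HTP7 and HTP8 stand highest on milled poplar, HTP7 also separates 4HBA from syringic acid, and HTP4 is lowest with the 2 acids.

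With isolated lignin added to cellobiose, HTP7 and HTP5 fell below cellobiose alone, and HTP8 and HTP4 did not pass the test. HTP7 had 145, 153 and 125 CPM with lignin, against 331, 376 and 337 CPM on cellobiose. Every lignin library was below every cellobiose library. HTP7 fell to 141 ± 14.7 CPM with lignin, against 348 ± 24.2 CPM on cellobiose (SD, n = 3 each; log2 difference -1.30, SE 0.21, adjusted p = 0.000248 by edgeR's quasi-likelihood test with Benjamini-Hochberg adjustment over 10860 genes).

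HTP5 had 58.1, 62.1 and 78.8 CPM with lignin, against 101, 145 and 119 CPM on cellobiose. It fell to a mean of 66.3 ± 11.0 CPM with lignin, against 122 ± 22.1 CPM on cellobiose (SD, n = 3 each; log2 difference -0.88, SE 0.22, adjusted p = 0.0046 by edgeR). HTP8 had 2.60, 3.28 and 2.80 CPM with lignin, against 2.87, 3.40 and 2.41 CPM on cellobiose. The ranges overlapped, and the 95% interval of its log2 difference was -0.35 to 0.36. HTP4 had 8.03, 6.77 and 10.4 CPM with lignin, against 12.5, 10.2 and 9.16 CPM on cellobiose, and its interval was -0.85 to 0.19. The adjusted p by edgeR was 0.993 for HTP8 and 0.284 for HTP4. So 2 of the 4 genes passed the test, both lower, in a comparison where 47.3% of all tested genes passed and 22.8% were lower. The groups did not overlap in the same 2 genes and in 64.9% of all tested genes, so the share of members is near the background. Scaled to plain totals the calls turned over: HTP4 at 0.99 (adjusted p = 0.0191 by edgeR) and HTP8 at 1.32 (adjusted p = 0.00314 by edgeR) were called higher with lignin, and HTP5 and HTP7 were not called.

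The falls of HTP7 and HTP5 depend on how libraries are scaled and on the library type described above. As a plain share of gene counts HTP7 was at 0.0212%, 0.0226% and 0.0184% with lignin, against 0.0186%, 0.0216% and 0.0216% on cellobiose, which overlap. On that scale the log2 difference was 0.01 for HTP7 and 0.43 for HTP5, beside the shift of 1.32 in the median gene. With library type as a term in the fit the log2 difference was -1.07 for HTP7 (adjusted p = 0.0564 by edgeR) and -0.70 for HTP5 (adjusted p = 0.278 by edgeR), and neither passed. Both library types occur only within 4HBA, where library 1 is of the cellobiose type and the others are not. HTP7 had 755 CPM in 4HBA library 1, and 718 and 565 CPM in the other 4HBA libraries. HTP5 had 119.7 CPM in 4HBA library 1, and 124 and 87.7 CPM in the other 4HBA libraries. As a plain share of gene counts HTP7 was at 0.0322% in 4HBA library 1, and at 0.101% and 0.0808% in the others. HTP5 was at 0.0051% in 4HBA library 1, and at 0.0175% and 0.0125% in the others. The view thus depends on the scaling too, and 1 library cannot show what library type does to these genes. The library names of the lignin and syringic acid groups are also written in another style than those of the other groups. That difference cannot be told apart from the addition of lignin or of syringic acid.

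Milled poplar and isolated lignin, whose libraries are of the same type, stood far apart in HTP5, HTP7 and HTP8. Cellobiose was added with lignin but not with poplar. The amount of material added and the style of the library names differ as well. These differences cannot be told apart from that between wood and isolated lignin, and the part of each was not tested. The log2 difference between poplar and lignin was 5.48 for HTP7 (SE 0.25), 5.38 for HTP5 (SE 0.26) and 4.00 for HTP8 (SE 0.15). It was -0.26 for HTP4, with a 95% interval of -0.77 to 0.25. On plain totals the median gene moved by -0.76. There the difference was 4.79 for HTP7, 4.68 for HTP5, 3.30 for HTP8 and -0.94 for HTP4. HTP5, HTP7 and HTP8 did not overlap between these groups, as was the case for 80.3% of all tested genes.

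**Figure D2:**
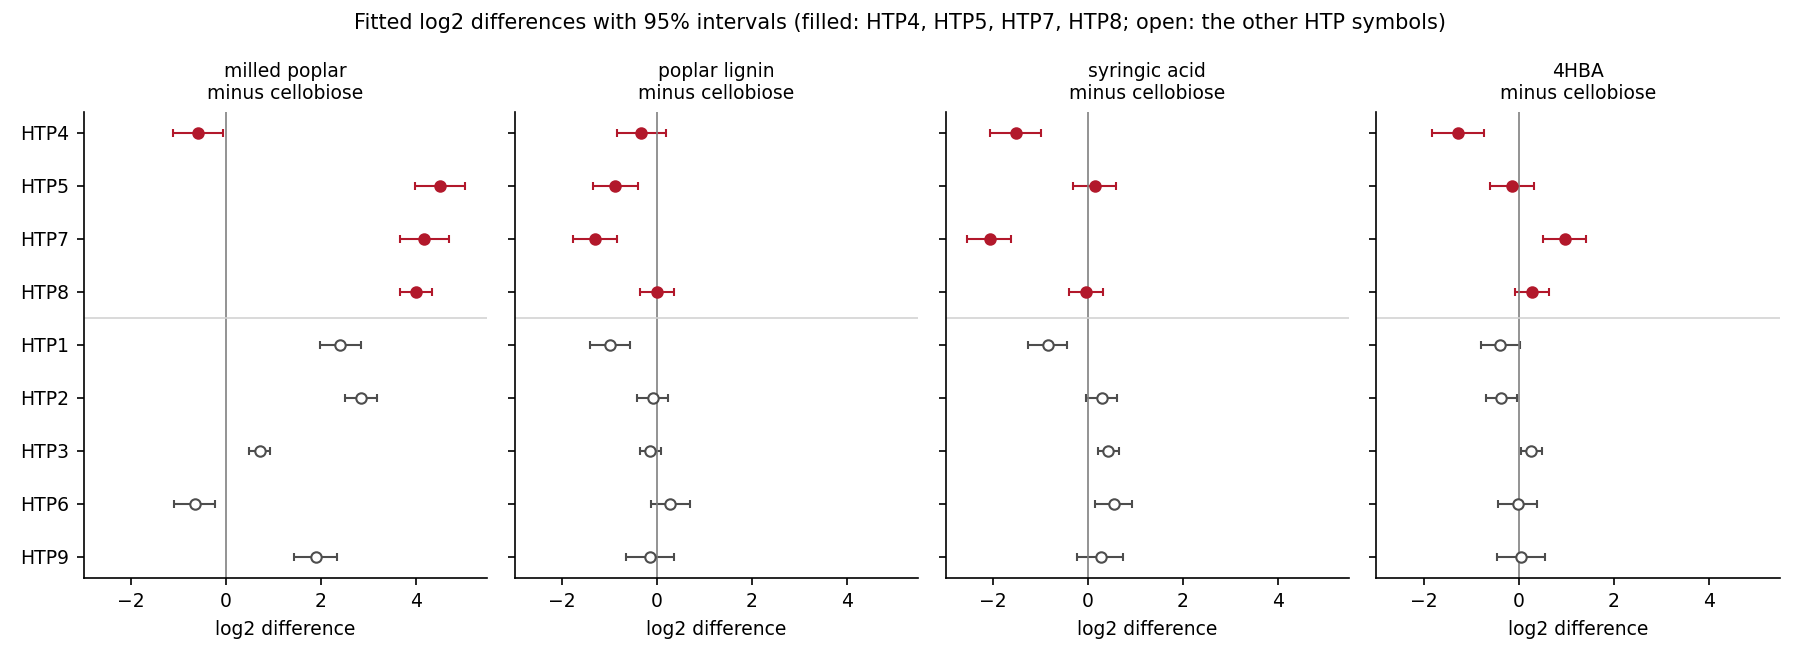
Fitted log2 differences (x axis) from cellobiose for all 9 HTP symbols (y axis) on milled poplar, with poplar lignin, with syringic acid and with 4HBA; points are edgeR estimates from 3 libraries a group and bars are 95% intervals. HTP5, HTP7 and HTP8 reach 4.00 to 4.50 on poplar, and HTP7 lies at -2.07 with syringic acid and at 0.97 with 4HBA. HTP4, HTP5, HTP7 and HTP8 were chosen on poplar and the acids, so their intervals there are a description and not a test.

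The aromatic acids, both at 2 mM, separated HTP7 from the other genes. HTP7 was at 96.3, 89.0 and 62.6 CPM with syringic acid, at 755, 718 and 565 CPM with 4HBA, and at 331, 376 and 337 CPM on cellobiose. These 3 groups did not overlap, and cellobiose lay between the acids. Standing apart from cellobiose was common, at 66.8% of all tested genes for syringic acid and 49.2% for 4HBA. Against cellobiose the log2 difference was -2.07 with syringic acid (SE 0.22) and 0.97 with 4HBA (SE 0.21). On plain totals these were -0.91 and 1.79, so the direction held while the sizes moved. Between the acids, HTP7 differed by -3.04 for syringic acid minus 4HBA (SE 0.23), or 8.22-fold lower with syringic acid, and by -2.95 without 4HBA library 1. Among the 10860 tested genes that difference had rank 48 counted from the lowest, which describes how HTP7 was chosen.

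HTP4 was low with both acids. It was at 2.98, 5.01 and 3.15 CPM with syringic acid, at 4.50, 3.90 and 4.67 CPM with 4HBA, and at 12.5, 10.2 and 9.16 CPM on cellobiose. Every acid library was below every cellobiose library, at 2.88-fold lower for syringic acid and 2.44-fold lower for 4HBA. Groups stood apart in 66.8% of all tested genes for syringic acid and in 49.2% for 4HBA. On plain totals the log2 difference from cellobiose shrank to -0.36 for syringic acid and -0.40 for 4HBA. As plain shares of gene counts, HTP4 with either acid overlapped with cellobiose. Between the acids the HTP4 ranges overlapped, with a 95% interval of -0.79 to 0.32 for the log2 difference.

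Relative to the bulk of genes, HTP5 and HTP8 overlapped with cellobiose with either acid. HTP5 was at 99.6, 181 and 123 CPM with syringic acid, at 119.7, 124 and 87.7 CPM with 4HBA, and at 101, 145 and 119 CPM on cellobiose. All 3 groups overlapped, with log2 differences from cellobiose of 0.14 for syringic acid and -0.14 for 4HBA. On plain totals, where the median gene moved by 1.12 and 0.93, these were 1.29 and 0.70. HTP8 was at 2.93, 2.90 and 2.58 CPM with syringic acid, at 3.83, 3.33 and 3.48 CPM with 4HBA, and at 2.87, 3.40 and 2.41 CPM on cellobiose. Its log2 differences from cellobiose were -0.05 for syringic acid and 0.28 for 4HBA, and on plain totals 1.12 and 1.15. Between the acids the 95% interval of the log2 difference was -0.17 to 0.75 for HTP5 and -0.65 to 0.00 for HTP8. So syringic acid and 4HBA stood apart without overlap in HTP7 and HTP8 and overlapped in HTP4 and HTP5. The libraries of the 2 acids also differ in the style of their names, and 4HBA library 1 is of the cellobiose type. The name style cannot be told apart from the acid, and the part of the methoxy groups was not tested. The gap in HTP8 was small, with a log2 difference of -0.32. On plain totals it was -0.03, and the HTP8 shares of the 2 acids overlapped. Groups standing apart were found in 57.4% of all tested genes in that comparison, and these intervals do not show that the acids act alike on the other genes.

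The lignin and syringic acid libraries are alike in type and in the style of their names, and they stood apart in HTP4, HTP5 and HTP7. The log2 difference for lignin minus syringic acid was 1.20 for HTP4 (SE 0.25), 0.77 for HTP7 (SE 0.21) and -1.02 for HTP5 (SE 0.22). The libraries of these groups did not overlap in the 3 genes, as in 48.8% of all tested genes. HTP8 had a difference of 0.05, with a 95% interval of -0.28 to 0.38. HTP5 was the lower with lignin and HTP7 the higher.

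The order of the 5 conditions differed between the genes. For HTP7 the order was poplar, 4HBA, cellobiose, lignin and syringic acid, and no neighbouring conditions overlapped. The highest group mean was 76.2-fold above the lowest. For HTP5 the order was poplar, syringic acid, cellobiose, 4HBA and lignin. Syringic acid, cellobiose and 4HBA overlapped with their neighbours, and lignin lay below 4HBA without overlap. For HTP8 poplar came first, and 4HBA, cellobiose, lignin and syringic acid followed within 2.80 to 3.55 CPM with overlapping neighbours. For HTP4 cellobiose came first, then lignin, poplar, 4HBA and syringic acid, and all neighbours overlapped. Its range of group means was 2.86-fold.

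The ratio of read counts between 2 of these genes in the same library does not depend on library scaling or gene length once it is set against the ratio on cellobiose. On poplar the ratio of HTP5 to HTP7 was 0.35 ± 0.12 above its cellobiose mean on the log2 scale (SD, n = 3), and that of HTP7 to HTP8 was 0.16 ± 0.31 above it. That of HTP5 to HTP8 was 0.51 ± 0.25 above it. These shifts are small beside the log2 differences of 4.00 to 4.50 of the genes themselves, although HTP5/HTP7 and HTP5/HTP8 did not overlap with cellobiose. With syringic acid the ratio of HTP5 to HTP7 was 2.21 ± 0.55 above the cellobiose mean, at 1.57, 2.55 and 2.50 in the libraries. With 4HBA it was 1.10 ± 0.08 below it, with library values of -1.13, -1.01 and -1.16. 4HBA library 1, the library that stands apart, is the first of these values and lies between the others.

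With lignin the ratio of HTP7 to HTP8 lay at -1.12, -1.38 and -1.45 relative to the cellobiose mean, against -0.07, -0.13 and 0.20 in the cellobiose libraries. HTP5 to HTP8 lay at -0.92, -1.15 and -0.58 with lignin, against -0.25, 0.02 and 0.23 on cellobiose. Neither ratio overlapped between these groups, so the lower place of HTP7 and HTP5 beside HTP8 with lignin does not rest on the choice of scaling. HTP4 to HTP7 did not overlap either, at 0.87, 0.55 and 1.46 with lignin. HTP4 to HTP5 did overlap, at 0.67, 0.32 and 0.60 with lignin against 0.50, -0.31 and -0.18 on cellobiose. A ratio removes scaling only, so library type and name style remain tied to lignin. How often other gene pairs stand apart was not counted. HTP4 moved away from the other genes on poplar, with a ratio to HTP5 of -5.14 ± 0.40 relative to the cellobiose mean.

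**Figure D3:**
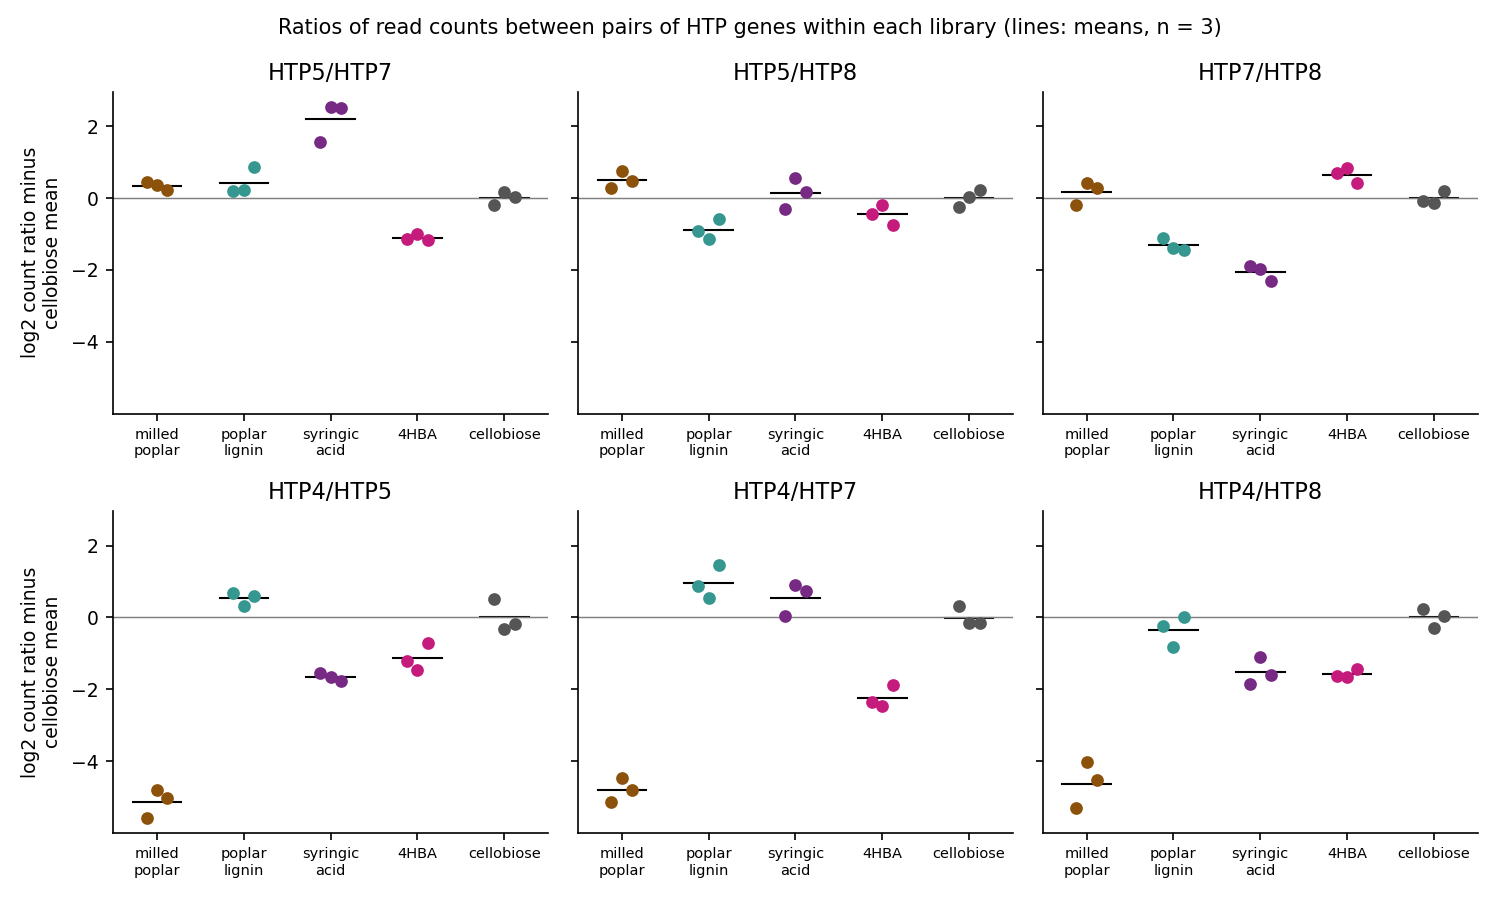
Log2 ratios of read counts between pairs of the 4 genes within each library, set against their mean on cellobiose (y axis), by condition; points are libraries and lines are means of 3. HTP5/HTP7 is near 0 on poplar, at 2.21 with syringic acid and at -1.10 with 4HBA, and all ratios with HTP4 are lowest on poplar.

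The other 5 HTP symbols were HTP1, HTP2, HTP3, HTP6 and HTP9, and several of them also responded to poplar. HTP2 rose to 147 ± 36.2 CPM on poplar, against 20.5 ± 2.33 CPM on cellobiose (SD, n = 3 each; log2 difference 2.85, adjusted p = 8.01e-10 by edgeR). HTP1 rose to 357 ± 127 CPM on poplar, against 67.2 ± 9.77 CPM on cellobiose (log2 difference 2.41, adjusted p = 6.24e-08 by edgeR, n = 3 each). HTP9 rose by 1.89 and HTP3 by 0.71 on the log2 scale, and HTP6 fell by 0.66. The call of HTP6 was lost without cellobiose library 3, with library type as a term and on plain totals. All 5 passed the test on poplar, 4 higher and 1 lower, beside 76.1% of all tested genes passing, 37.7% higher and 38.4% lower, with a median log2 difference of 1.89 beside -0.02 over all genes. Of these 5, HTP2 and HTP1 came nearest to HTP8 in the size of the poplar difference, at 2.85 and 2.41 beside 4.00.

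With lignin 1 of these 5 passed the test, lower, whereas on plain totals 4 passed, all higher (HTP2 at 1.23, HTP3 at 1.17, HTP6 at 1.59 and HTP9 at 1.15). HTP1 fell to 33.9 ± 2.64 CPM with lignin, against 67.2 ± 9.77 CPM on cellobiose (SD, n = 3 each; log2 difference -0.99, adjusted p = 0.00105 by edgeR), a call lost with library type as a term (adjusted p = 0.113 by edgeR) and a direction that turned to 0.33 on plain totals. With syringic acid HTP1 fell by 0.85, and HTP3 and HTP6 rose by 0.43 and 0.54 on the log2 scale, against a background of 56.5% of genes called, 26.8% higher and 29.7% lower. None of these 3 calls held with library type as a term, and on plain totals HTP1 turned to 0.31 while HTP2 at 1.45 and HTP9 at 1.43 were also called higher. HTP2 was called higher, too, with the syringic acid and cellobiose libraries fitted alone. The call of HTP6 was also lost without cellobiose library 1 or 2 or syringic acid library 1 or 2. With 4HBA 0 of the 5 passed in the edgeR fit of all libraries, beside 31.5% of all genes called, and at an unadjusted p below 0.05 that fit had HTP2 and HTP3. DESeq2 called HTP2 lower, edgeR on the 4HBA and cellobiose libraries alone called HTP1 and HTP2 lower, and edgeR on plain totals called HTP3 and HTP9 higher.

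Other peroxidases and the multicopper oxidases, not all of them enzymes of lignin attack, were counted in lignin against cellobiose. That is the comparison in which the 4 genes were tested. Of 13 manganese peroxidases, which oxidise manganese ions into a diffusible oxidant of phenolic lignin, 1 rose and 4 fell, beside 24.5% of all genes higher and 22.8% lower, with a median log2 difference of -0.17 beside 0.01 over all genes. MnP10 rose by 1.50 and MnP2 fell by 2.35 on the log2 scale. Of LiP1, LiP2 and GP, lignin and generic peroxidases by their symbols, LiP1 rose by 1.26 and LiP2 fell by 0.65. LiP1 was nearly absent, at 0.569 ± 0.0434 CPM with lignin and 0.228 ± 0.104 CPM on cellobiose (SD, n = 3 each). In the cellobiose libraries 3 counts equal 0.137 to 0.172 CPM, so the rise of LiP1 rests on few reads. Of PRX5 and CCP, a peroxidase symbol and the mitochondrial cytochrome c peroxidase, PRX5 rose by 0.59. Of 8 multicopper oxidases, laccases and a ferroxidase by symbol, 3 rose and 1 fell. Cslcs1 rose to 1083 ± 57.0 CPM with lignin, against 403 ± 61.7 CPM on cellobiose (SD, n = 3 each; log2 difference 1.43, adjusted p = 0.000297 by edgeR), and Cslcs5 fell by 0.72. Of these 7 named genes only Cslcs1 and Cslcs5 were still called with library type as a term, under which LiP1 turned to -0.14. On plain totals LiP2 turned to 0.65 and Cslcs5 to 0.59, and 10 of the 13 manganese peroxidases and 7 of the 8 multicopper oxidases were called higher. Symbols of enzymes that supply hydrogen peroxide, on which HTPs depend, and of cytochrome P450s matched 0 rows, since 110 of 12313 genes carry a symbol other than a locus tag.

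Genes with a pattern like that of each HTP were ranked by the root mean square difference of their 5 group means of log2 CPM, each gene centred on its own mean, among genes with at least 10 CPM on average. For HTP5 the nearest of 7558 genes was MnP3, a manganese peroxidase by symbol, at 0.22 log2 units. MnP3 had 320.1 ± 61.8 CPM on poplar and 13.1 ± 5.44 CPM on cellobiose (SD, n = 3 each). CERSUDRAFT_88192 followed at 0.25 and CERSUDRAFT_151114 at 0.28. For HTP8 the nearest were CERSUDRAFT_115801 at 0.11, CERSUDRAFT_134024 at 0.13 and CERSUDRAFT_118251 at 0.15, and the first with a symbol was MnP8 at 0.31, rank 46.

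HTP7 had less close neighbours. CERSUDRAFT_115360 stood at 0.34 log2 units, CERSUDRAFT_145870 at 0.40 and CERSUDRAFT_127733 at 0.42, and the first symbol was MnP12 at 0.88, rank 71. In CERSUDRAFT_115360, CERSUDRAFT_145870 and CERSUDRAFT_127733 syringic acid was the lowest condition. They were picked for their likeness to HTP7 over the same group means, so nothing more is read from this. For HTP4 CERSUDRAFT_115712 came first at 0.26, then CERSUDRAFT_121307 and CERSUDRAFT_114511 at 0.29 each, and CsMn25 was the first symbol at 0.40, rank 67. Among the HTPs themselves HTP5 and HTP8 were the closest pair of the 4 at 0.49, and HTP4 and HTP7 the most distant at 2.15. Without 4HBA library 1 the 3 nearest genes were the same for HTP4 and HTP7, and 2 of 3 remained for HTP5 and HTP8.

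**Figure D4:**
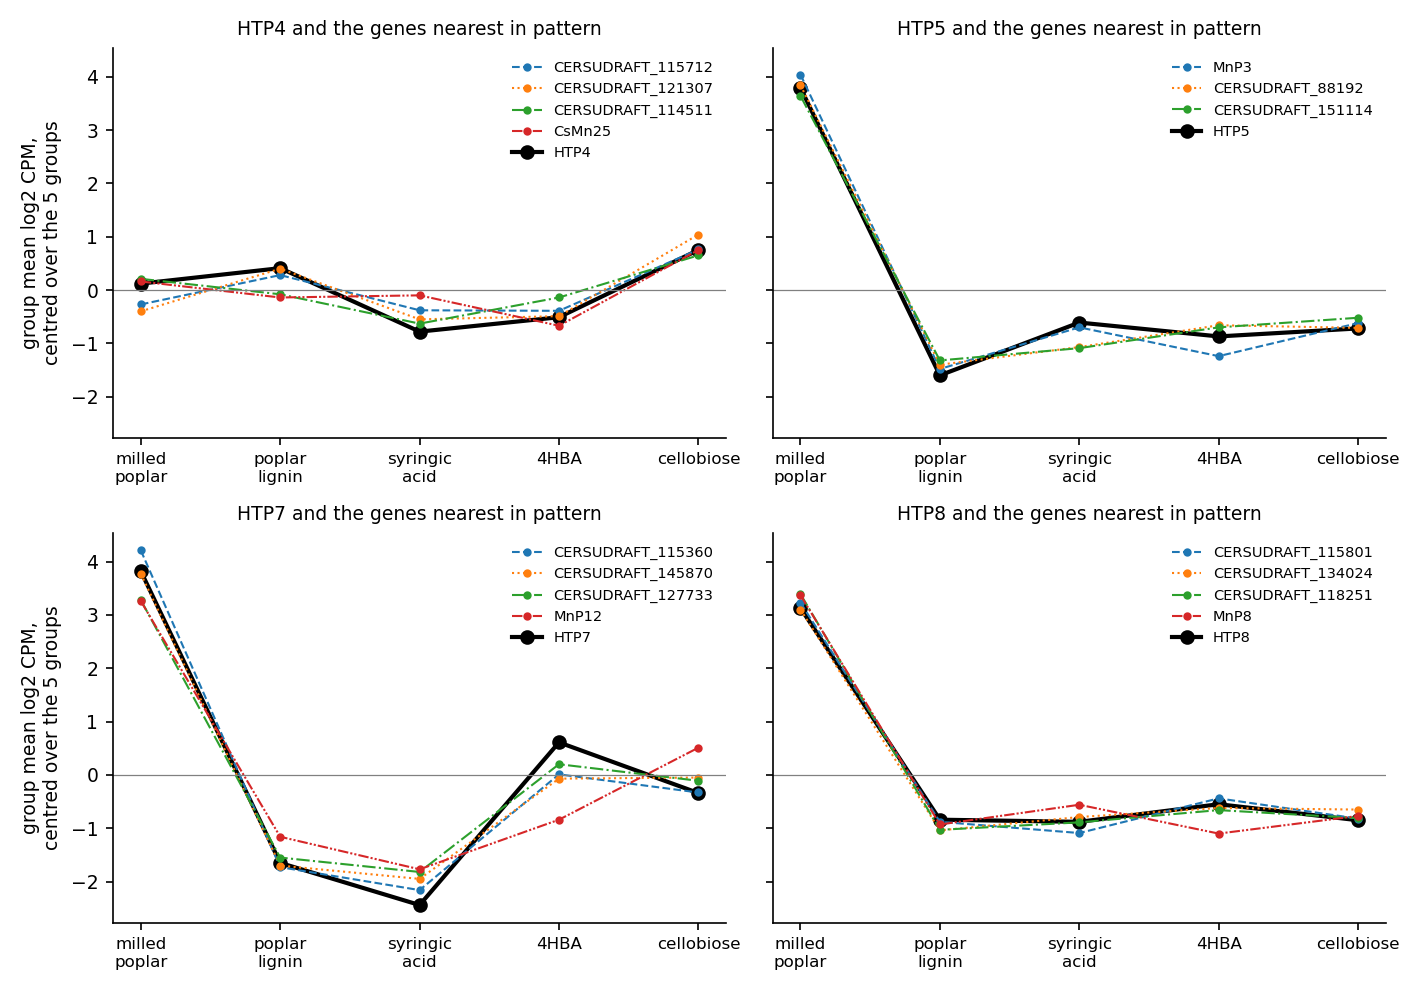
Group means of log2 CPM centred over the 5 conditions (y axis) for each HTP gene (black) and the genes nearest to it in pattern (dashed or dotted lines), from 3 libraries a group. MnP3 lies 0.22 log2 units from HTP5, while the nearest gene to HTP7, CERSUDRAFT_115360, lies 0.34 units away.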

How the data were processed

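The authors deposited 1 table of whole-number read counts per gene for each library, and those counts were used unchanged. Per the submitters' processing notes, HTSeq, Bowtie, Bowtie2 and FastQC were used; versions, settings and build: not given in the sources used here. Per the labels' protocols, total RNA was depleted of ribosomal RNA and made into stranded libraries. Entries that name no gene made up 24.2% to 27.9% of counts in the cellobiose libraries and 4HBA library 1 and 7.84% to 9.89% in the other 11, and were left out. Replicate libraries differed by more than counting error, and none was a copy of another.

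The 15 G. subvermispora libraries were fitted together with edgeR 4.0.16 in R 4.3.3, with 1 mean per group, TMM normalization, the default expression filter (10860 genes left) and the two-sided quasi-likelihood test at a Benjamini-Hochberg adjusted p of 0.05. The biological coefficient of variation was 0.15. Log2 differences come from this fit, and log2 CPM used a prior count of 2. On simulated data for lignin against cellobiose, with 10681 genes tested, 99 of 100 genes changed 2-fold and 100 of 100 changed 4-fold were recovered. There were 7 false calls. The simulated counts of all libraries came from the cellobiose means with 1 spread for all genes, and only genes with enough expected reads were changed. They hold no difference in library type, so they say nothing on how the lignin calls depend on it or on scaling. T. versicolor tables served only to count genes. Alternatives were RLE and upper-quartile scaling, no filter, DESeq2 1.42.0, both groups alone, each library left out for the comparisons of its own group, and library type as a term. Those added after seeing the data were total-count scaling, TMM without genes above 1% of counts, and 4HBA library 1 left out of the other comparisons.

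The members and lists were chosen with earlier results of these data known. All HTPs were named, as were, of each other list, the genes called with the largest rise and fall with lignin, and for each of the 4 genes the 3 nearest in pattern and the nearest with a symbol. Closely similar family members may share reads that counting splits or drops. Counting error only is covered by depth limits: 3 counts, the limit that a count of 0 allows, equal 0.0431 to 0.225 CPM.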

Additional observations from a re-analysis of the deposited data

How the results depend on the processing

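Each of the 6 lignin and cellobiose libraries was left out in turn for lignin against cellobiose. This kept the direction and the side of the threshold of HTP4, HTP5 and HTP7, at -0.55 to -0.22, -1.05 to -0.75 and -1.39 to -1.25. HTP8, never called, ran from -0.14 to 0.12. RLE and upper-quartile scaling, DESeq2, no filter, both groups alone, 4HBA library 1 left out and TMM without genes above 1% of counts kept both calls too. With library type as a term HTP5 (-0.70) and HTP7 (-1.07) were no longer called with lignin, and HTP7 on poplar was 4.41. The term rests on 4HBA library 1. Upper-quartile scaling, which moved the median gene by -0.30 on poplar against cellobiose and by -0.38 on poplar against lignin, gave 4.22 and 5.06 for HTP5, 3.90 and 5.17 for HTP7, and 3.72 and 3.68 for HTP8. It also moved the split of calls to 3012 up and 5408 down for poplar against cellobiose (4090 and 4174 under TMM) and to 3040 up and 5751 down for poplar against lignin (4104 and 4502 under TMM).

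Scaling to the total of gene counts, chosen after seeing the data, moved most values, because the median gene itself moved. For HTP4, HTP5, HTP7 and HTP8 in that order it gave 0.99 (called), 0.43, 0.01 and 1.32 (called) with lignin, 0.04, 5.12, 4.80 and 4.62 on poplar, -0.36, 1.29, -0.91 and 1.12 with syringic acid, and -0.40, 0.70, 1.79 and 1.15 with 4HBA, all against cellobiose. For poplar against lignin it gave -0.94, 4.68, 4.79 and 3.30. For syringic acid against 4HBA it gave -2.70 for HTP7 and -0.03 for HTP8, and for lignin against syringic acid 0.20 for HTP8. HTP4, HTP5 and HTP7 with lignin, and HTP4 on poplar, changed sign, as did HTP1 (0.33), HTP2 (1.23), HTP3 (1.17) and HTP9 (1.15) with lignin and HTP1 (0.31) with syringic acid.

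The count of genes called under TMM was 5138 for lignin (2659 up), 8264 for poplar (4090 up), 3417 for 4HBA (1901 up) and 6137 for syringic acid (2912 up) against cellobiose. With library type as a term it was 1232 for lignin, 844 for 4HBA and 2705 for syringic acid. With total-count scaling it was 9200 for lignin (9121 up and 79 down), 5115 for poplar (4148 up and 967 down), 6197 for 4HBA (6136 up and 61 down), 7672 for syringic acid (7527 up and 145 down), 6252 for poplar against lignin (1243 up and 5009 down), 801 (557 up) instead of 5602 for syringic acid against 4HBA, and 224 instead of 3653 for lignin against syringic acid. Leaving out single libraries gave 2216 (without 4HBA library 2) to 3728 for 4HBA. The cause of these changes was not tested. No paired analysis was possible because the labels give library numbers only.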
